A study of Mus musculus with 6 samples.

Results

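The genes of glycolysis and lactate handling were followed in mouse colorectal tumors with and without an intestinal Trp53 deletion. They were chosen by name, as 38 genes that take up glucose, break it down to pyruvate, run the steps backwards, and exchange lactate or pass pyruvate to the mitochondrion. The names matched 39 of the 54167 rows of the deposited table, because Aldoa is listed under 2 gene IDs, and 38 rows were expressed enough to be tested. All 6 tumors came from C57BL/6J mice that carried floxed Trp53 alleles, were given 10 mg/kg azoxymethane, a carcinogen, at 8 weeks of age and then drank 2.5% dextran sulfate sodium, which injures the colon lining, in cycles of 7 days. Tumors were collected on day 98. The 3 Trp53fl/fl tumors carried no Cre and serve as the control, and the 3 VP tumors also carried Cre under the villin promoter, which is active in intestinal epithelium and not in the stroma, blood cells or muscle that a dissected tumor still holds. Poly(A) RNA of whole tumors was sequenced, and the authors deposited TPM (a relative transcript abundance), which are corrected for transcript length and for library size. The comparison asks how the RNA of these genes differs between tumors with and without Trp53 in the epithelium.

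Glycolysis turns glucose into pyruvate in the cytosol, with a small yield of ATP. Hexokinases trap glucose in the cell, phosphofructokinase commits it to the pathway, and pyruvate kinase makes the last ATP. Lactate dehydrogenase reduces pyruvate to lactate, which leaves the cell through monocarboxylate transporters, and tumors are known for running this route even where oxygen is present. Most steps are served by several isoenzymes made from separate genes, and p53 is known as a regulator of glucose metabolism.

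Trp53 itself was at 125, 99.3 and 147 TPM in Trp53fl/fl tumors against 38.5, 32.8 and 27.8 TPM in VP tumors, with no overlap (log2 fold change -1.87, limma adjusted p = 0.0207), the direction that the labels give. The TPM of each tumor sum to between 999964 and 1000067, and 14857 to 15234 genes reached 1 TPM per tumor. TPM keep no read counts, so the depth is unknown. The labels do not say whether the 3 tumors of a genotype are from 3 mice, and p-values measure the spread between these samples.

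Most of the pathway was higher in VP tumors, by small steps. Of the 38 rows tested, 35 had a log2 fold change above 0 (92.1%), where 39.2% of all 15117 genes tested did, and their median log2 fold change was 0.25 against -0.070 over all genes. Fold changes are VP minus Trp53fl/fl on the log2(TPM + 1) scale, where the change of a gene near 1 TPM comes out smaller than its true size. In 14 rows every VP tumor was above every Trp53fl/fl tumor (36.8%, against 6.03% of all genes), in 1 row every VP tumor was below (13.3% of all genes), and in 23 rows the genotypes overlapped. None of the rows passed the limma test adjusted over all genes, with adjusted p-values of 0.265 to 0.980 (0.165% of all genes, or 25, passed). By unadjusted limma p-values under 0.05, 12 rows were higher (31.6%, against 4.51% of all genes) and 0 were lower (8% of all genes). Epithelial markers also summed higher in every VP tumor. When each tumor was centred on them, 3 members were higher and 1 was lower at that level. The centring lowered the counts over all genes too: 2.21% were higher at that level, and 21.9% had a log2 fold change above 0. The members are not independent of each other, and they were chosen with earlier results of these data known, so these counts describe the list and test nothing. A gene is called higher or lower below only as its values stand.

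**Figure D1:**
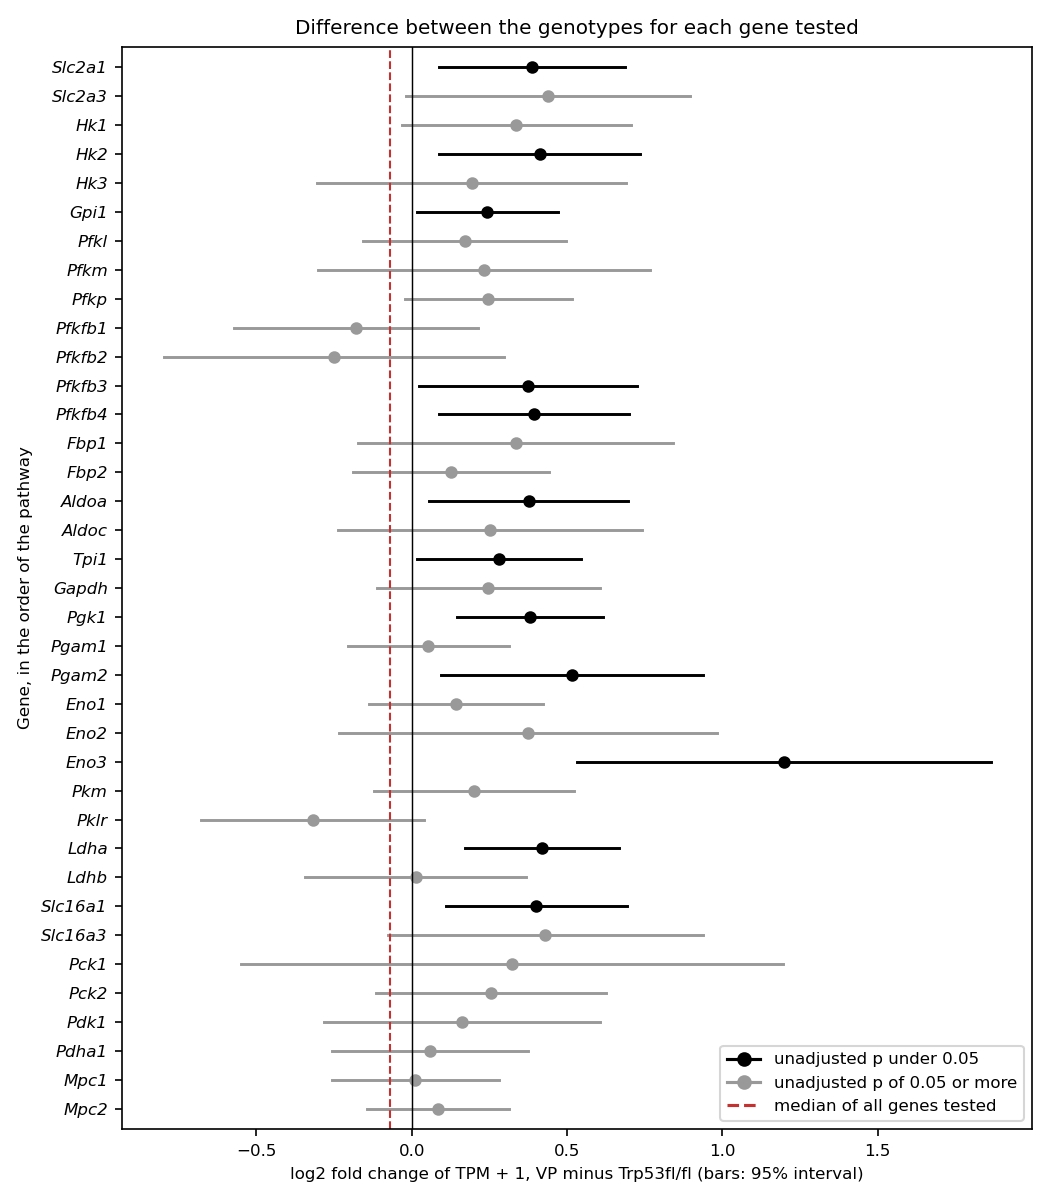
Log2 fold change (VP minus Trp53fl/fl, log2(TPM + 1) scale) of the members tested, without the second Aldoa row, each with its 95% interval from limma on 3 against 3 tumors, black where the unadjusted p was under 0.05, with the median of all genes as a dashed line. Eno3 has the largest value at 1.20, 3 members lie below 0, and none passed the adjusted test.

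The TPM of all members summed to 9035, 8107 and 9991 in the Trp53fl/fl tumors and to 10644, 10751 and 11111 in the VP tumors. The genotypes did not overlap, and the same held without Gapdh, the most abundant member, at 6132, 5554 and 6485 against 7108, 7378 and 7480.3 TPM. Trp53fl/fl replicate 2 was the lowest of all 6 tumors for 24 of the 38 rows tested. The share over all genes was not counted, so whether this tumor is low for these genes in particular cannot be told. For some members, such as Pklr (121 TPM), Fbp2 (93.2 TPM) and Pdha1 (126 TPM), it was the highest control tumor.

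Glucose enters through transporters, and the first enzymes hold it in the cell. Slc2a1 (chromosome 4, 119108711 to 119137983, GRCm38), which encodes GLUT1, the main basal glucose transporter, was at 61.8, 54.1 and 60.7 TPM in control tumors against 89.3, 73.8 and 69.7 TPM in VP tumors. Every VP tumor was above every control tumor, by 0.39 on the log2 scale (standard error 0.13, limma adjusted p = 0.331). Slc2a3, which encodes the high-affinity transporter GLUT3, was scarce at 2.62, 1.95 and 3.37 against 3.71, 4.20 and 3.75 TPM, also without overlap (log2 fold change 0.44, limma adjusted p = 0.411). Slc2a1 made up 95.7% ± 0.907 of the summed TPM of both transporters in the Trp53fl/fl tumors (SD, n = 3) and 95.2% ± 0.740 in the VP tumors (SD, n = 3), so the make-up of this step was similar.

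Hk2 (chromosome 6, 82725025 to 82774454), the hexokinase typical of tumors and muscle, was at 88.1, 72.3 and 64.2 TPM in control tumors against 102, 103 and 92.2 TPM in VP tumors. The ranges did not meet, although the highest control tumor came within a few TPM of the lowest VP tumor (log2 fold change 0.41, standard error 0.14, limma adjusted p = 0.334). Hk1, the housekeeping hexokinase, overlapped at 48.7, 39.9 and 49.4 against 62.0, 66.0 and 47.7 TPM. Hk3 was at 2.61 to 3.45 TPM against 2.80 to 4.75 TPM and overlapped too, and Hkdc1, a hexokinase-like gene, stayed below 1 TPM in every tumor and was not tested. Gpi1, which converts glucose 6-phosphate to fructose 6-phosphate, was at 245, 246 and 266 TPM against 306, 308 and 283 TPM. Its 3 VP tumors all lay above its control tumors (log2 fold change 0.24, standard error 0.10, limma adjusted p = 0.381).

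**Figure D2:**
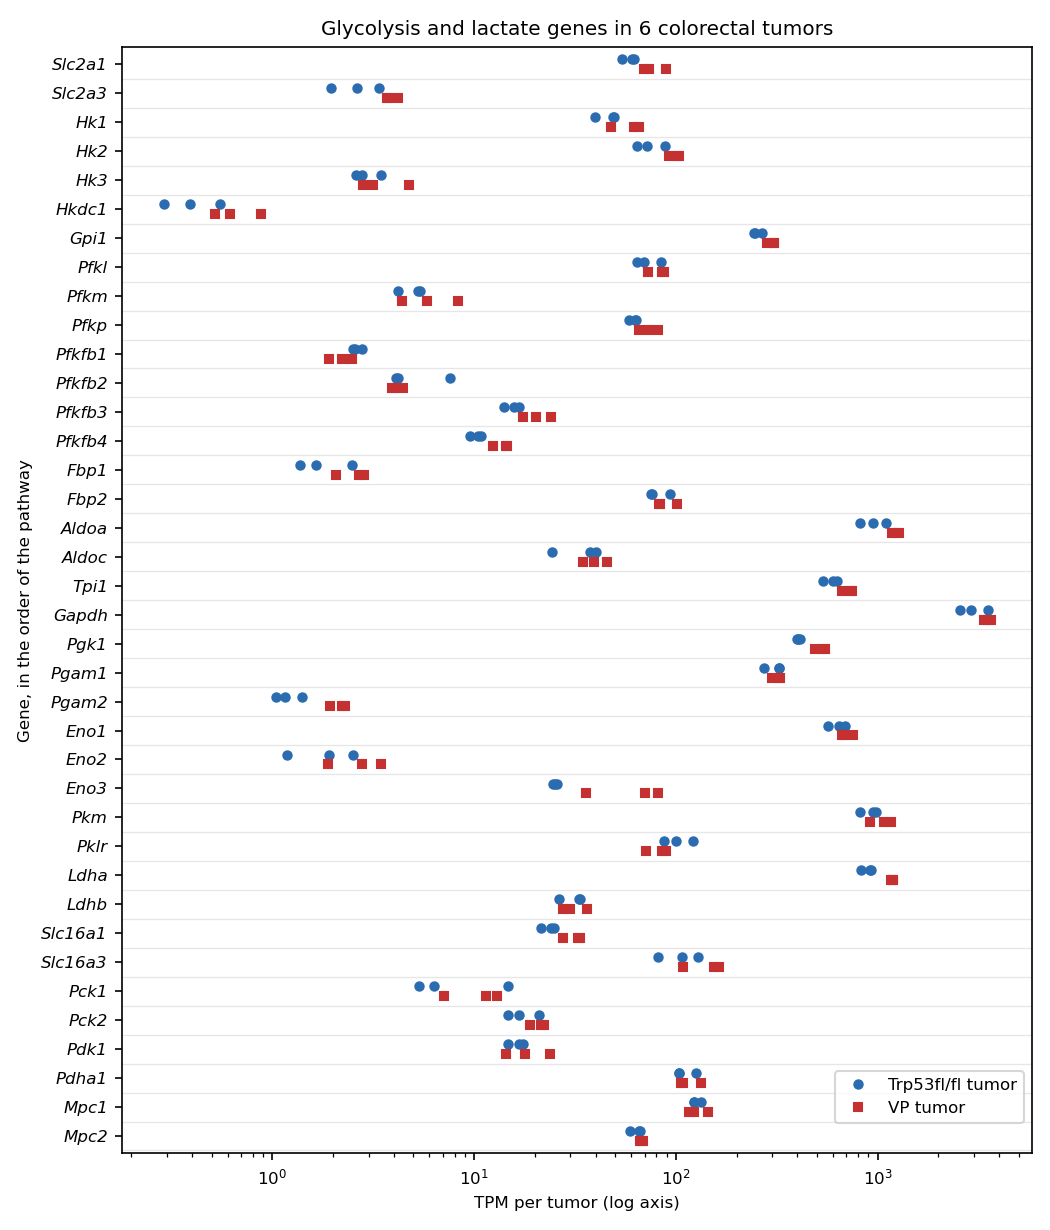
TPM of each member in every tumor, on a log scale, with Trp53fl/fl tumors as circles and VP tumors as squares and the members in pathway order, without the second Aldoa row. Members span from below 1 TPM (Hkdc1) to 3630.2 TPM (Gapdh), and the 3 VP tumors of Eno3 stand clear of its control tumors.

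Phosphofructokinase is the committed step, and it is switched on by fructose 2,6-bisphosphate, which the PFKFB enzymes make and remove. Of the 3 phosphofructokinase genes, Pfkl was the most abundant and overlapped at 69.9, 64.2 and 84.4 against 72.4, 87.5 and 85.5 TPM. Pfkp, the platelet-type gene, was at 63.0, 58.3 and 63.7 against 65.7, 81.6 and 73.4 TPM without overlap (log2 fold change 0.25, limma adjusted p = 0.424). Pfkm, the muscle-type gene, was at 4.22 to 5.41 TPM against 4.38 to 8.31 TPM and overlapped.

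The regulatory enzymes went different ways. Pfkfb3, whose product mostly makes fructose 2,6-bisphosphate, was at 15.8, 14.1 and 16.8 TPM in control tumors against 17.4, 20.4 and 24 TPM in VP tumors, with no overlap (log2 fold change 0.37, standard error 0.15, limma adjusted p = 0.381). Pfkfb4 was at 10.9, 10.4 and 9.49 against 14.6, 12.4 and 14.5 TPM, again with every VP tumor above (log2 fold change 0.39, standard error 0.13, limma adjusted p = 0.331). Pfkfb1 was the 1 row whose VP tumors were all below its control tumors, at 2.51, 2.57 and 2.78 against 2.47, 2.22 and 1.91 TPM, though replicate 1 of both genotypes was nearly equal (log2 fold change -0.18, limma adjusted p = 0.658). Apex2 (5.95 to 8.32 TPM) overlaps Pfkfb1 on the opposite strand, as do Senp1 (14.5 to 17.2 TPM) for Pfkm and Unc5a (1.95 to 4.02 TPM) for Hk3. Whether the libraries kept the strand is not given in the sources used here. Pfkfb2 was at 4.11, 7.63 and 4.19 against 4.08, 4.42 and 3.93 TPM, so that only Trp53fl/fl replicate 2 stood apart, and its log2 fold change of -0.25 became -0.0030 without that tumor. Gm29427 overlaps Pfkfb2 on the same strand, was at 5.01 to 7.70 TPM, and has 65.7% of its own 31-base words in Pfkfb2. Adding both gave -0.29. As shares of the summed TPM of the 4 genes, Pfkfb1 made up 7.54%, 7.39% and 8.37% in the control tumors and 6.41%, 5.64% and 4.31% in the VP tumors, and Pfkfb2 made up 12.3%, 21.9% and 12.6% against 10.6%, 11.2% and 8.88%. Both shares were lower in every VP tumor. A share within a step does not depend on how a tumor is scaled, and was described without a test.

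Aldolase, triosephosphate isomerase, Gapdh and phosphoglycerate kinase split the sugar and carry its fragments through the first ATP-making step. Aldoa, the main aldolase, was at 944, 817 and 1098 TPM in control tumors against 1182, 1277 and 1228 TPM in VP tumors, without overlap (log2 fold change 0.38, standard error 0.14, limma adjusted p = 0.349). The second row named Aldoa lies next to it on the same strand and was at 0.58 to 1.95 TPM, and Aldoc, the aldolase known from brain, overlapped at 24.2 to 40.3 against 34.7 to 45.8 TPM. Tpi1, which interconverts the 2 triose phosphates, was at 603, 539 and 630.1 against 741, 665 and 743 TPM, also without overlap (log2 fold change 0.28, standard error 0.11, limma adjusted p = 0.382). Gapdh, which makes the first NADH of the pathway, overlapped at 2902, 2553 and 3506 against 3536, 3373 and 3630.2 TPM (log2 fold change 0.25, limma adjusted p = 0.521). Gapdh has 43 gene copies with at least 50% of their own 31-base words in it, of which 16 reached 1 TPM, so its reads may be split among them. With the copies added its log2 fold change was 0.26.

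Pgk1 (chromosome X, 106187100 to 106203699), the first ATP-making enzyme, was at 403, 398 and 414 TPM in the control tumors, a narrow range, and at 548, 548 and 487 TPM in VP tumors. The VP mean was 1.30 times the control mean (528 ± 35.0 against 405 ± 8.34 TPM, SD, n = 3 each). The log2 difference was 0.38 (standard error 0.10, 95% interval 0.14 to 0.61, limma adjusted p = 0.279). It is 1 of 3 members whose unadjusted p-value stayed under 0.05 with any 1 tumor left out. Pgam1, the next enzyme and a strong expresser, overlapped at 323, 274 and 324 against 300.5, 328 and 325 TPM (log2 fold change 0.053, limma adjusted p = 0.853). It has a processed copy, Pgam1-ps2, at 2.26 to 24.1 TPM, whose sequence it shares in full, and adding it gave 0.083. Pgam2, the muscle-type mutase, was scarce at 1.04, 1.41 and 1.16 against 2.21, 2.28 and 1.94 TPM, with every VP tumor above (log2 fold change 0.51, standard error 0.18, limma adjusted p = 0.341), and its share of both mutases was 0.397% ± 0.102 against 0.671% ± 0.0701 (SD, n = 3 each).

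The largest fold change of a single member was that of a minor enolase. Eno3, the muscle enolase, was at 25.1, 25.9 and 24.5 TPM in control tumors against 35.9, 70.3 and 81.1 TPM in VP tumors. The control tumors lie close together, whereas VP replicate 1 stands well below the other VP tumors, though still above every control tumor. The VP mean was 2.48 times the control mean (62.4 ± 23.6 against 25.2 ± 0.701 TPM, SD, n = 3 each). The log2 difference was 1.20 (standard error 0.28, 95% interval 0.53 to 1.86, limma adjusted p = 0.265). Without VP replicate 1 the log2 fold change was 1.55 and the limma adjusted p = 0.0353, the only setting tried in which a member passed the adjusted test, and over the other alternatives the limma adjusted p-value was 0.149 to 0.592. Eno1, the main enolase, overlapped at 646, 565 and 690.2 against 665, 680.3 and 751 TPM, and Eno2, the neuronal enolase, overlapped at 1.18 to 2.52 against 1.88 to 3.45 TPM. Eno3 therefore made up 3.73%, 4.37% and 3.42% of enolase TPM in the control tumors and 5.10%, 9.32% and 9.73% in the VP tumors.

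Eno3 (chromosome 11, 70657202 to 70662513, forward strand, GRCm38) lies on the same chromosome as Trp53, 1.07 Mb from it. Of the 9 other genes tested within 100 kb on either side, log2 fold changes ran from -0.13 to 0.62, and Gm12320, at the upper end, was the only one with an unadjusted limma p under 0.05. Eno3 is known from muscle, and smooth muscle markers (8 genes such as Acta2, Myh11 and Des) summed to 696, 495 and 819 TPM in the control tumors and to 887, 1363 and 420.3 TPM in VP tumors. These sums overlapped between the genotypes, and the part of muscle in the Eno3 values was not tested. Of 7 skeletal muscle markers, 5 were under 1 TPM in every tumor, among them Myh4 at 0. The list summed to 8.42 to 9.72 against 7.65 to 18.8 TPM, led by Acta1 at 6.92 to 8.87 against 7.15 to 16.8 TPM.

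**Figure D3:**
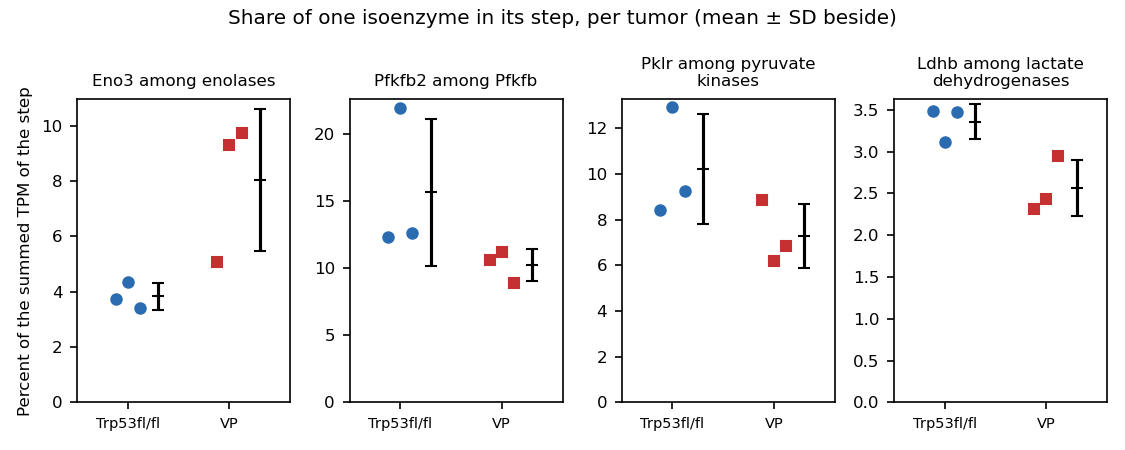
Share of Eno3, Pfkfb2, Pklr and Ldhb in the summed TPM of their step, in percent, for every tumor (circles Trp53fl/fl, squares VP), with the mean and SD of 3 tumors beside them. The mean share of Eno3 was 3.84% in Trp53fl/fl tumors and 8.05% in VP tumors, and of the 4 genes only the share of Pklr overlapped.

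Pyruvate kinase is where the pathway ends in pyruvate. Pkm, its main gene here, overlapped at 953, 814 and 978 against 921, 1075 and 1165 TPM (log2 fold change 0.20, limma adjusted p = 0.556), and TPM per gene do not separate the M1 and M2 splice forms. Pklr, the liver and red cell gene, had the lowest fold change of all members, at 87.8, 121 and 99.9 against 89.5, 70.9 and 85.5 TPM, where VP replicate 1 lay above Trp53fl/fl replicate 1 (log2 fold change -0.32, standard error 0.15, limma adjusted p = 0.434). Its share of pyruvate kinase TPM was 10.2% ± 2.40 against 7.29% ± 1.39 (SD, n = 3 each) and overlapped.

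Ldha and both lactate transporters were higher on average in VP tumors. Ldha (chromosome 7, 46841475 to 46855627), whose subunit favours the reduction of pyruvate, was at 914, 822 and 929 TPM in control tumors against 1167, 1193 and 1197 TPM in VP tumors. The VP mean was 1.33 times the control mean (1185 ± 16.3 against 888 ± 57.7 TPM, SD, n = 3 each). The log2 difference was 0.42 (standard error 0.11, 95% interval 0.17 to 0.67, limma adjusted p = 0.276). Ldhb, whose subunit favours the oxidation of lactate, was at 33.0, 26.4 and 33.4 against 27.6, 29.8 and 36.3 TPM, and the interval of its log2 fold change was -0.34 to 0.37 around 0.012. Ldhb made up 3.48%, 3.12% and 3.47% of lactate dehydrogenase TPM in the control tumors and 2.31%, 2.44% and 2.95% in the VP tumors, lower in every VP tumor. Slc16a1 (chromosome 3, 104638668 to 104658462), which encodes the lactate transporter MCT1, was at 23.9, 21.5 and 24.9 against 32.7, 33.6 and 27.7 TPM, without overlap (log2 fold change 0.40, standard error 0.12, limma adjusted p = 0.317). Slc16a3, which encodes MCT4 and held 81.6% and 81.5% of the transporter TPM in the 2 genotypes, overlapped at 107, 81.9 and 128 against 109, 155 and 164 TPM (log2 fold change 0.43, limma adjusted p = 0.448). Bsg, their chaperone at the cell surface and no member, was named after its values were seen. It was at 966, 925 and 1013 against 1052, 1129 and 1256 TPM, with every VP tumor above (log2 fold change 0.24, limma adjusted p = 0.435).

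The stretch before the start of these genes was examined because many glycolytic genes are known to respond to HIF-1, whose binding sites hold ACGTG. RefSeq starts on GRCm38.p6 were found for 37 of the 38 names (57 start windows), and Slc2a3 was not matched. The 250 bases before each start were searched for ACGTG on both strands. Of the 37 members, 14 held it (37.8%), against 24.5% of the 10961 genes tested, and of the 12 members with an unadjusted p under 0.05, 7 held it (58.3%): Aldoa, Hk2, Ldha, Pfkfb3, Pgk1, Slc16a1 and Slc2a1. Of the other 25 members, 7 held it (28.0%). The palindrome CACGTG, which contains ACGTG on each strand and is also the core bound by MYC, was found before 6 of the 37 members (16.2%, against 9.5% of the 10961 genes). They were Ldha, Pfkfb3 and Slc16a1 of the 12 (25.0%) and Fbp2, Pfkfb2 and Pfkm of the other 25 (12%). Per window the share with CACGTG was 10.5% for the members against 7.9% for the genes tested. A match says only that these letters are in the window, and nothing about binding. The windows of 5 members are given below, of which the first 4 were picked because they hold the motif, and Eno3, with the largest fold change, does not. Ldha has a second start window (chr7:46846832-46847081) without a match, which is not shown. Each is read 5′ to 3′ on the strand of its gene, the last base is the one before the start, and capitals mark ACGTG or its reverse complement CACGT.
Pgk1 (chrX:106186850-106187099, forward strand): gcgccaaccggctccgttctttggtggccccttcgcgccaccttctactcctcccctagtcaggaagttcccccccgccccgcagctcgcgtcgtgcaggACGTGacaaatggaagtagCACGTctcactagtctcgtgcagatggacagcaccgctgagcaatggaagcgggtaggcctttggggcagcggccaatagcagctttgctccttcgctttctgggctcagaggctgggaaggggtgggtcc
Ldha (chr7:46845554-46845803, forward strand): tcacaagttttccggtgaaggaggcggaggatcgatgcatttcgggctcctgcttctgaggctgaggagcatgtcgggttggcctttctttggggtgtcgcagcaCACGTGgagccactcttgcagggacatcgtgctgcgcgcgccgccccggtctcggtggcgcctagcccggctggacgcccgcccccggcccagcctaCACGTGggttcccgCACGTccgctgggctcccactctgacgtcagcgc
Slc16a1 (chr3:104638414-104638663, forward strand): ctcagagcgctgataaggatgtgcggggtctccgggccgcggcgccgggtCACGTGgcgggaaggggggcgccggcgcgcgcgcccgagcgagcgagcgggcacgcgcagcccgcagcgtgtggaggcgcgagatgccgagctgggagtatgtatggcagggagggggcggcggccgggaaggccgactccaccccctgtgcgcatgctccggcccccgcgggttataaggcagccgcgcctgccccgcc
Hk2 (chr6:82774455-82774704, reverse strand): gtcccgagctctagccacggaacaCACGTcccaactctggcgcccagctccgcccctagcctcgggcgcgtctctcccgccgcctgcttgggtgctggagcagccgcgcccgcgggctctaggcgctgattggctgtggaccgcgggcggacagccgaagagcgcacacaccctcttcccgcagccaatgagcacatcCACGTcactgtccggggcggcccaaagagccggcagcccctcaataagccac
Eno3 (chr11:70656926-70657175, forward strand): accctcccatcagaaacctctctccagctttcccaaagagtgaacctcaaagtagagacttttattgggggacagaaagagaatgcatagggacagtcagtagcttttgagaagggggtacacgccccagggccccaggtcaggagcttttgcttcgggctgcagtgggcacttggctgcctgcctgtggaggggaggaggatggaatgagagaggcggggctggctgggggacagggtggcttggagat
In Ldha the matches begin 145, 144, 48, 47 and 34 bases before the start, in Pgk1 150 and 131, in Slc16a1 200 and 199, and in Hk2 226 and 52. Of the regulators of glycolytic genes, Hif1a, Myc, Epas1 and Arnt were named after their values were seen. Hif1a, Myc and Epas1 overlapped, with log2 fold changes of -0.060, 0.13 and 0.38. Arnt was lower in every VP tumor (log2 fold change -0.15, limma adjusted p = 0.586).

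The enzymes of glucose synthesis and the entry of pyruvate into the mitochondrion overlapped between the genotypes in every case, with log2 fold changes from 0.011 (Mpc1) to 0.33 (Fbp1). Fbp2, the main fructose bisphosphatase, was at 74.9, 93.2 and 76.5 against 82.2, 83.8 and 101 TPM, and Fbp1, the liver form, was at 1.37 to 2.49 against 2.08 to 2.85 TPM. Pck1, the cytosolic PEP carboxykinase, was at 5.35 to 14.7 against 7.13 to 13.0 TPM, and Pck2, the mitochondrial form and the more abundant, at 16.7, 14.7 and 21.1 against 21.5, 22.2 and 18.9 TPM. Pdk1, a kinase that switches off pyruvate dehydrogenase, was at 14.7 to 17.4 against 14.4 to 23.7 TPM, and Pdha1, a subunit of that complex, was at 103 to 126 against 106 to 132 TPM. Mpc1, a subunit of the mitochondrial pyruvate carrier, was at 124, 123 and 133 against 145, 116 and 123 TPM, and the interval of its log2 fold change was -0.26 to 0.28. Mpc2, the other subunit, was at 59.4 to 66.6 against 66.3 to 68.9 TPM. None of these reached an unadjusted p under 0.05 with all tumors. Without Trp53fl/fl replicate 3, Pck1 was at 0.72 in place of 0.32 and Pck2 at 0.39 in place of 0.26 on the log2 scale, and both reached that level (limma adjusted p = 0.273 for each).

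RNA of several markers of cells other than epithelium also differed between the genotypes. Neutrophil markers (10 genes such as S100a8 and Ngp) were higher in VP tumors for 10 of 10 genes, with 7 at an unadjusted limma p under 0.05. Ngp passed the adjusted test (limma adjusted p = 0.0080). Csf3r, Ly6g and Mmp9 did not reach that unadjusted level and overlapped (log2 fold changes 0.074, 0.21 and 0.23). The summed TPM of the 10 genes was 401 to 730 in the control tumors and 1214 to 2044 in the VP tumors. Erythroid markers (4 of 5 tested) were higher for 4 of 4 genes, at 165 to 484 against 648 to 992 TPM. The 12 epithelial markers summed to 9858 to 10290 against 10671 to 11898 TPM, higher in every VP tumor, and 10 of them had a log2 fold change above 0. Only Krt19 and Cldn7 reached an unadjusted limma p under 0.05 (log2 fold changes 0.39 and 0.37). The other epithelial markers ranged from -0.029 (Cldn4) to 0.27 (Cldn3), with Epcam at 0.0028 and Cdh1 at 0.024. Neutrophils and red cells are known to run glycolysis, and the part of these cells in the members' higher values was not tested. In whole tumors, fewer cells of a type and less RNA per cell cannot be told apart. Of the other lists, smooth muscle (8 of 8 genes above 0), fibroblast (2 of 6), macrophage (5 of 7), T cell (1 of 5) and endothelium (5 of 5) summed to 495 to 819, 815 to 906, 448 to 483, 26.2 to 35.2 and 72.2 to 88.9 TPM in control tumors, against 420.3 to 1363, 680.4 to 1015, 468 to 575, 16.7 to 37.2 and 87.3 to 95.8 TPM in VP tumors, and all of these sums overlapped. The sums are led by a few abundant genes. Single markers at an unadjusted limma p under 0.05 were Pdgfra and Lum of the fibroblast list, lower in every VP tumor (log2 fold changes -0.56 and -0.57), and Cd68 of the macrophage and Vwf of the endothelial list, higher in every VP tumor (0.53 and 0.36). Their part in the members' values was not tested. The sums of mature colonocyte markers (640 to 722 against 625 to 878 TPM), B and plasma cell markers (417 to 841 against 395 to 884 TPM), neuron and glia markers (9.82 to 15.8 against 11.8 to 19.6 TPM) and adipocyte markers (14.5 to 23.3 against 14.2 to 30.2 TPM) overlapped as well, although Cdhr5 and Car1 of the colonocyte list reached that level in opposite directions (0.47 and -0.94).

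**Figure D4:**
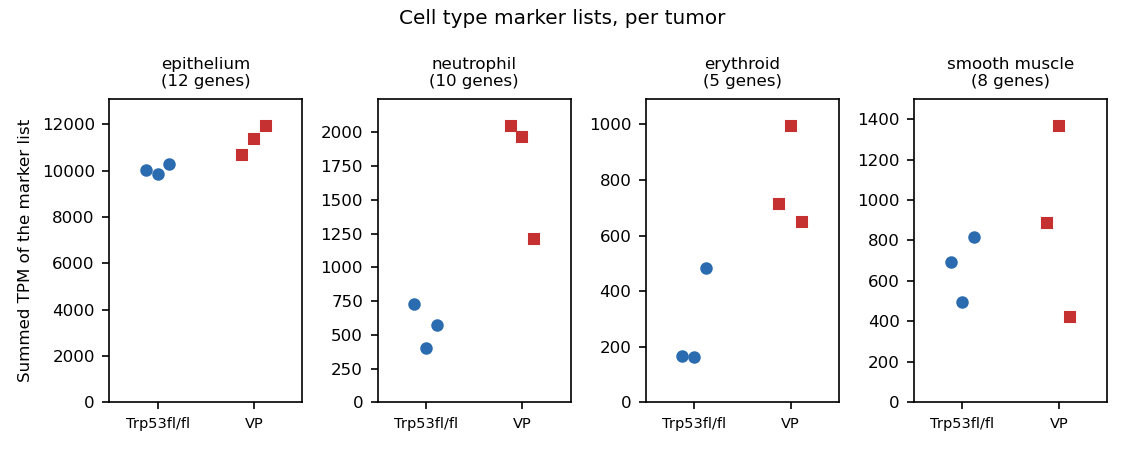
Summed TPM of the epithelial, neutrophil, erythroid and smooth muscle marker lists in every tumor, on linear axes from 0 (circles Trp53fl/fl, squares VP). Neutrophil sums run from 401 to 730 in Trp53fl/fl tumors and from 1214 to 2044 in VP tumors, and epithelial sums are 9858 to 10290 and 10671 to 11898.

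When each tumor was centred on the mean of its 12 epithelial markers, the median of the members was 0.11, with that of all genes at -0.21. In that setting Eno3, Pgk1 and Ldha were higher and Pklr was lower at an unadjusted p under 0.05, and 2.21% of all genes were higher. Centring moves every gene of a tumor by the same amount, so the distance of the members from all genes cannot change with it. With a tumor left out, 6 (without VP replicate 2) to 14 members were higher at an unadjusted p under 0.05, where 3.11% to 5.47% of all genes were. Eno3, Ldha and Pgk1 were among these members in each of the 6 fits.

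**Figure D5:**
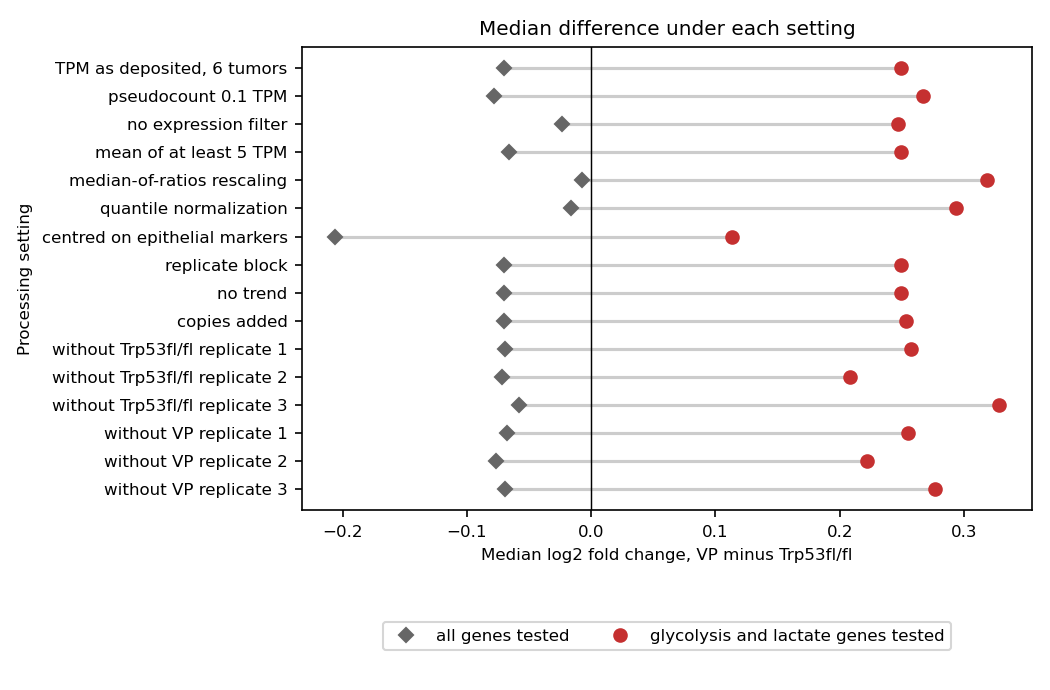
Median log2 fold change (VP minus Trp53fl/fl) of the members tested (circles) and of all genes tested (diamonds) under each setting tried. Centring on epithelial markers gives the lowest pair, 0.11 and -0.21, and the distance within a pair is fixed by construction for the centring, the replicate block and the fit without trend.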

How the data were processed

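Gene TPM of 6 colorectal tumors, 3 Trp53fl/fl and 3 VP, were deposited by the authors, scaled for transcript length and to the same total in each tumor, with 2 decimals and no pooling. The submitters' processing notes name HISAT2, StringTie and mm9 without role or version, and read filtering is not given in the sources used here. RNA was used at an integrity number above 8. TPM keep no counts, so no counting error or count test was possible. Scaling to a fixed total lets a few abundant transcripts shift all others.

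Coordinates are those of GRCm38 (GENCODE M21 annotation), not mm9, and 96.27% of the deposited IDs had an entry there. Sequences are from RefSeq (GRCm38.p6). Gene copies were listed where at least 50% of the copy's own 31-base words were found in a member.

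Log2(TPM + 1) was taken for the 15117 genes that reached 1 TPM in 3 or more tumors and fitted with limma 3.58.1 in R 4.3.3 (empirical Bayes with trend, Benjamini-Hochberg adjustment over all genes). The method was tested on simulated data with planted changes larger than those of most members, so that test does not show how well changes as small as theirs are found. Figures and tables used pandas 2.3.3 and matplotlib 3.10.9. Members and lists were chosen with earlier results of these data known. Every member is named: those with an unadjusted p under 0.05, without overlap or leading their step are given tumor by tumor, and of each pathway list at most 4 genes with the smallest such p are named. Other genes are said to be named after their values were seen. Alternatives were a pseudocount of 0.1 TPM, no filter, a filter at a mean of 5 TPM, rescaling by median of ratios, quantile normalization, epithelial markers as the centre, the replicate number as a block, no trend, each tumor left out and, chosen after seeing the data, the TPM of gene copies added.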

Additional observations from a re-analysis of the deposited data

How the results depend on the processing

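The count of all genes passing the limma adjusted test was 25 and became 7 without an expression filter, 10 with the replicate number as a block, and 3 to 23 with a tumor left out (3 without Trp53fl/fl replicate 1, 5 without VP replicate 2, 7 without VP replicate 1, 9 without Trp53fl/fl replicate 3, 14 without Trp53fl/fl replicate 2). The same-numbered tumors correlated by 0.0185, -0.0520 and 0.0175 in their deviations, and tumors of unlike number by -0.108 to 0.0952. With 3 tumors per genotype, these values cannot decide whether the numbers pair the tumors. With the block, 9 members were higher at an unadjusted p under 0.05 (4.12% of all genes were), and 0 members passed the adjusted test. The block cannot move a fold change in this balanced design. Members passing the adjusted test were 0 in every setting but 1 without VP replicate 1 (0 to 1 with a tumor left out). Members higher at an unadjusted p under 0.05 were 12, and 3 when centred on epithelial markers, 15 with median-of-ratios rescaling, and 6 to 14 with a tumor left out (7 without Trp53fl/fl replicate 1 or 2, 8 without VP replicate 1, 6 without VP replicate 2). The share of all genes higher moved as well. It was 4.51%, and 2.21% when centred, 6.72% with median-of-ratios rescaling, and 3.11% (without Trp53fl/fl replicate 1) to 5.47% (without VP replicate 3) with a tumor left out. Members lower were 0, and 1 when centred on epithelial markers, and 0 to 1 with a tumor left out (Pklr without Trp53fl/fl replicate 1). The median of the members was 0.11 when centred and 0.21 to 0.33 with a tumor left out. Of the 15 alternatives, 11 can move a gene's fold change. In these, all 132 values of the 12 members higher at an unadjusted p under 0.05 were above 0, and of the 38 members tested 31 had the same sign wherever they were tested (1 was not tested in each) and 7 did not. Values that changed sign were close to 0. Centred on epithelial markers, Pgam1 was at -0.082, Fbp2 at -0.0099, Mpc1 at -0.12, Mpc2 at -0.052, Ldhb at -0.12 and Pdha1 at -0.077, and with quantile normalization Mpc1 was at -0.0035. With a tumor left out, Pdk1 ranged from -0.017 (without VP replicate 1) to 0.32, Pgam1 from -0.026 (without Trp53fl/fl replicate 2) to 0.094, Mpc1 from -0.080 (without VP replicate 1, also below 0 without Trp53fl/fl replicate 1 or 2) to 0.076, Ldhb from -0.099 (without VP replicate 3, also below 0 without Trp53fl/fl replicate 2) to 0.094, and Pdha1 from -0.043 (without VP replicate 1) to 0.15. The cause of these moves was not tested. Of the genes passing the adjusted test, 12 of 25 were higher in VP tumors, against 12 of 36 when centred and 13 of 22 with median-of-ratios rescaling. Unknown depth limits the precision of genes near 1 TPM.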

Other observations

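The pathways that branch from glycolysis were counted as lists chosen with earlier results of these data known, and no gene of theirs passed the limma test adjusted over all genes. Over all genes tested, 39.2% had a log2 fold change above 0, and the median was -0.070. At an unadjusted limma p under 0.05, 4.51% of all genes were higher and 8% were lower. The counts below describe the lists and test nothing. In the pentose phosphate pathway, which makes NADPH and ribose, 9 of 10 genes had a log2 fold change below 0 (median -0.14) and none reached an unadjusted limma p under 0.05. In the citric acid cycle 11 of 16 genes were above 0 (median 0.085), also with none at that level, and of 12 regulators of glycolytic genes 6 were above and 6 below 0. Among 10 genes of the pyruvate dehydrogenase complex and its regulators, 3 were above 0 and 7 below, and 2 were lower at an unadjusted limma p under 0.05. Pdk4, a kinase that switches the complex off, was at 3.48, 4.83 and 3.76 TPM in Trp53fl/fl tumors and at 2.56, 2.06 and 2.77 TPM in VP tumors (log2 fold change -0.53, limma adjusted p = 0.341). Pdp2, a phosphatase that switches it on, was at 14.0, 12.9 and 12.6 against 7.58, 8.38 and 11.2 TPM (log2 fold change -0.51, limma adjusted p = 0.324), and neither gene overlapped between genotypes.

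Among 15 genes tested of glycogen, hexosamine, fructose and polyol metabolism, 11 were above 0, with 3 higher and 1 lower at an unadjusted limma p under 0.05. Pgm1, named here as the deposited table does and known as a phosphoglucomutase that links glucose 1-phosphate and glucose 6-phosphate, was at 37.0, 36.0 and 38.4 TPM against 54.0, 54.6 and 48.2 TPM, with every VP tumor above (log2 fold change 0.48, limma adjusted p = 0.219). Pygl, the liver glycogen phosphorylase, was at 6.17, 6.96 and 8.09 against 12.8, 11.9 and 9.06 TPM, again without overlap (log2 fold change 0.59, limma adjusted p = 0.311). Khk, which phosphorylates fructose, overlapped at 5.57, 7.75 and 10.8 against 11.4, 13.7 and 10.6 TPM (log2 fold change 0.55, limma adjusted p = 0.394), and Tkfc, which phosphorylates glyceraldehyde and dihydroxyacetone, was lower in every VP tumor at 16.5, 14.7 and 17.4 against 13.2, 10.9 and 12.7 TPM (log2 fold change -0.37, limma adjusted p = 0.345). Of 16 tested genes of glucose transport and side isoenzymes, 13 were above 0 and 1 reached an unadjusted p under 0.05: Slc5a1, the sodium-coupled glucose transporter SGLT1, at 25.5, 22.5 and 31 against 49.1, 41.7 and 30.5 TPM, where VP replicate 3 fell inside the control range (log2 fold change 0.59, limma adjusted p = 0.341).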
